A study of Mus musculus with 27 samples.

Results

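The genes described here encode the nuclear subunits of the 5 complexes of oxidative phosphorylation. They were chosen by symbol, as every gene whose name starts with Nduf, Sdh, Uqcr, Cox4 to Cox8 or Atp5, leaving out assembly factors and pseudogenes, and each was represented by its single-gene probe set of highest mean signal. This gave 81 of the 18820 genes of the array. Of these, 34 belong to complex I, 4 to complex II, 7 to complex III, 19 to complex IV and 17 to complex V. Ndufa4 and its paralog Ndufa4l2 were counted with complex IV, where Ndufa4 sits in spite of its name. Cox7c, Ndufa13 and Uqcrc2 are not analysed here, because they share their probe sets with other genes. Several symbols of complex V are older names of the annotation, such as Atp5c1 for the gene now called Atp5f1c.

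Liver RNA was measured in 27 C57BL/6J pups of 2 weeks of age, with 1 array per pup. The 6 males and 9 females of maternal LFD had dams on a low fat diet with 10% of energy as fat and 18.0 mg cholesterol per kg. The 6 males and 6 females of maternal WSD had dams on a Western-style diet with 45% of energy as fat and 196.5 mg cholesterol per kg. Dams received their diet for 6 weeks before mating and through pregnancy and lactation, sires were on control diet, and the pups still depended on maternal milk. Pups are named by sex, diet and replicate, so m-LF5 is the fifth LFD male. Values are log2 signals, and a change is the WSD mean minus the LFD mean on the log2 scale, with its standard error (SE).

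Oxidative phosphorylation takes place in the inner mitochondrial membrane. Complexes I and II pass electrons from NADH and succinate to coenzyme Q, complex III passes them on to cytochrome c, and complex IV hands them to oxygen, while complexes I, III and IV move protons out of the matrix. Complex V, the ATP synthase, makes ATP as the protons flow back. The liver draws on this system for gluconeogenesis, urea synthesis and ketogenesis, and suckling pups burn mostly milk fat.

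Few of these genes passed the test in either sex, and the changes were small. A gene is said to have risen or fallen when its p in limma was at most 0.01, the threshold of the study's methods, and adjusted p values (Benjamini-Hochberg over the 10810 genes tested) stand beside it. Of the 57 members that passed the filters on signal and on variation, 3 rose and 0 fell in males, namely Sdhb, Ndufb10 and Cox6b1, against 5.62% of all genes called in either direction (3.02% higher and 2.6% lower). In females 3 rose, namely Sdhb, Ndufa5 and Atp5c1, and Ndufa3 fell, against 5.19% of all genes (3.6% higher and 1.59% lower). At an adjusted p under 0.05, limma called 0 members in males and 0 in females, where 0.731% and 0.305% of all genes were called. At p 0.01 the members called were 5.26% of those tested in males and 7.02% in females. At an unadjusted p of 0.05 limma called 11 members in males (19.3%) and 14 in females (24.6%), with 14.3% and 14.5% of all genes at that level.

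The sign of the changes was lopsided in males. The filter on variation favours genes that differ between pups, so signs are described for the 78 members that passed the signal filter alone. In this fit 62 of 78 members (79.5%) had a positive change in males, with a median of 0.05, beside 52.5% of 13279 genes and a median of 0.0052. In females 41 of 78 members (52.6%) had a positive change, with a median of 0.0087, beside 56.4% of all genes and a median of 0.013. The median difference between the male and the female change was 0.04, with 53 of 78 members above 0. At p 0.01 this fit called 3 of the 78 members in males and 7 in females, against 5.14% of all genes in each sex. The 3 added in females were Atp5pb of the peripheral stalk of complex V (0.13), Uqcrb (0.18) and Uqcr10 (-0.15). Atp5pb and Uqcrb were higher on WSD and Uqcr10 was lower. Further probe sets of these genes had female changes of 0.06 for Atp5pb, 0.17 and 0.19 for Uqcrb and -0.26 for Uqcr10. Signs and medians are descriptions of the list, whose genes are not independent of each other, and no test was made over it. In bulk liver, fewer cells of a type and less RNA per cell cannot be told apart.

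**Figure D1:**
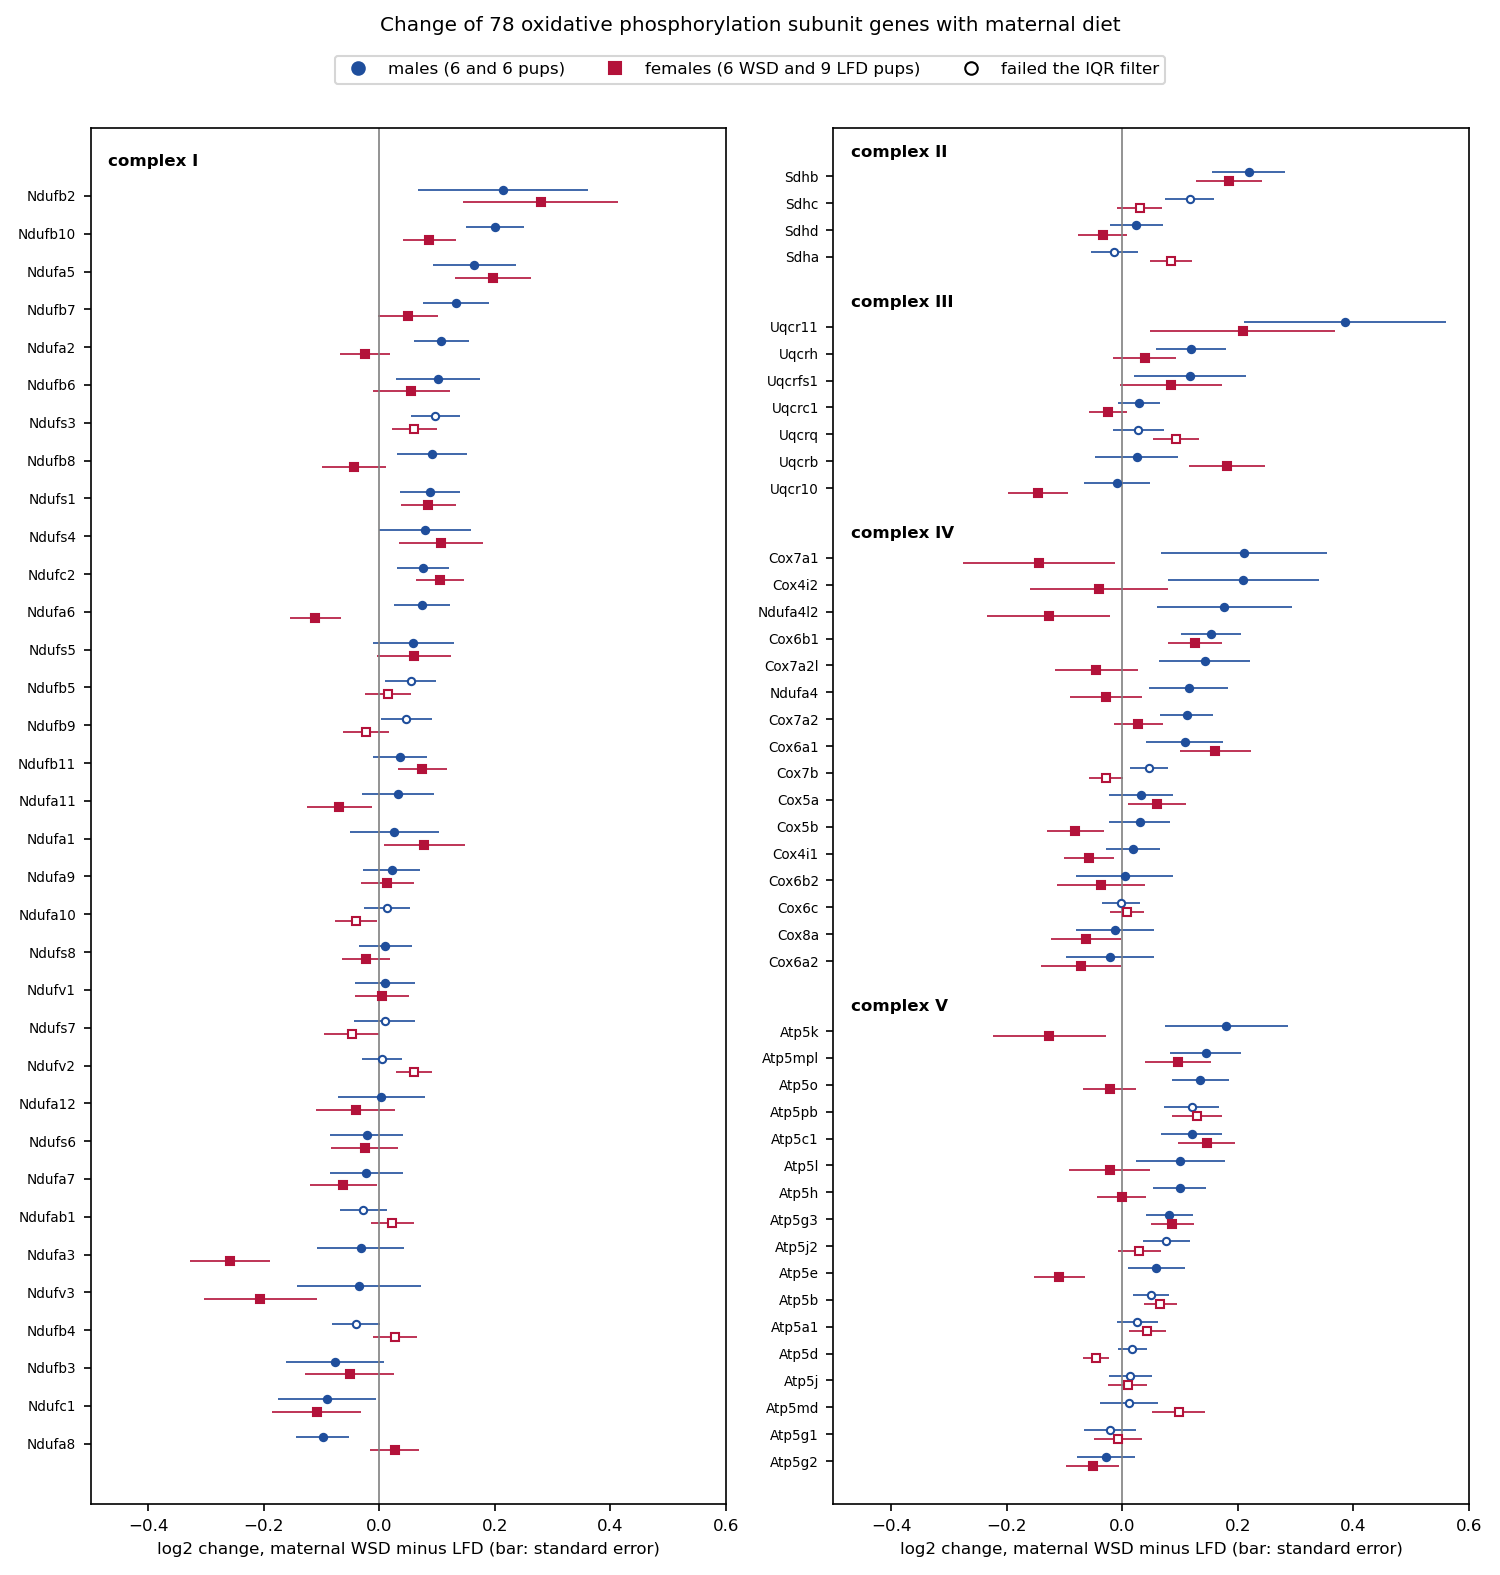
Log2 change with maternal diet (x axis, WSD minus LFD, bars are standard errors) of the 78 members above the signal filter, listed by complex and ordered by the male change. Filled symbols are members that also passed the filter on variation. In complexes IV and V most male points (13 of 16 and 15 of 17) lie to the right of 0, and the female points lie on both sides.

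By complex, the positive share in males was 25 of 34 in complex I, 3 of 4 in complex II, 6 of 7 in complex III, 13 of 16 in complex IV and 15 of 17 in complex V. In females it was 19 of 34, 3 of 4, 5 of 7, 5 of 16 and 9 of 17. Median changes in males were 0.03, 0.07, 0.03, 0.08 and 0.08 for complexes I to V. The female medians were 0.01, 0.06, 0.08, -0.04 and 0.0094. Complex IV thus had the widest gap between the medians of the sexes, which was not tested as a set. Its 16 genes include Cox4i2, Cox6a2, Cox6b2, Cox7a1 and Ndufa4l2, which had the lowest signals among them. Their mean log2 signals were 5.06, 5.20, 4.71, 5.97 and 4.87, so their changes are less certain.

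Complex II oxidises succinate and belongs to the TCA cycle as well as to the respiratory chain. Its iron-sulphur subunit Sdhb (chr4:140961271-140979198, GRCm38.p6) is the only one of the 57 tested members that rose in both sexes. In male LFD pups Sdhb ranged from 10.02 through a median of 10.25 to 10.35, and in male WSD pups from 10.32 through 10.47 to 10.57. All 6 WSD males lay above the LFD median and 4 of them above every LFD male, so the groups overlapped at their edges. The change was 0.22 ± 0.0652 (SE, limma, adjusted p = 0.0947), and it was 0.22 within each of the 2 prefixes, G073 and G074, that the array names carry.

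In females Sdhb ran from 10.18 through 10.35 to 10.44 on LFD and from 10.32 through 10.46 to 10.73 on WSD. The highest value was that of f-WS5, 3 of 6 WSD females lay above every LFD female, and f-LF8 was lowest. The change was 0.19 ± 0.0595 (SE, limma, adjusted p = 0.159), with 0.22 in arrays of prefix G073 and 0.09 in those of G074, which hold 2 WSD females. The difference between the male and female changes was 0.03 ± 0.0882 (SE, limma, adjusted p = 0.924).

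The other subunits of complex II were not called. Sdhd, 1 of the 2 membrane anchors, had changes of 0.02 in males and -0.03 in females. Sdhc, the other anchor, and Sdha, the flavoprotein that binds succinate, failed the filter on variation. In the fit without that filter Sdhc had a change of 0.12 in males (limma, adjusted p = 0.197) and 0.03 in females, and Sdha had -0.01 and 0.08. The study from these same pups lists both Sdhb and Atp5c1 as up-regulated in males and in females. It used probe sets regrouped by gene and its own moderated test at the same threshold. Here Atp5c1 was called in females only.

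**Figure D2:**
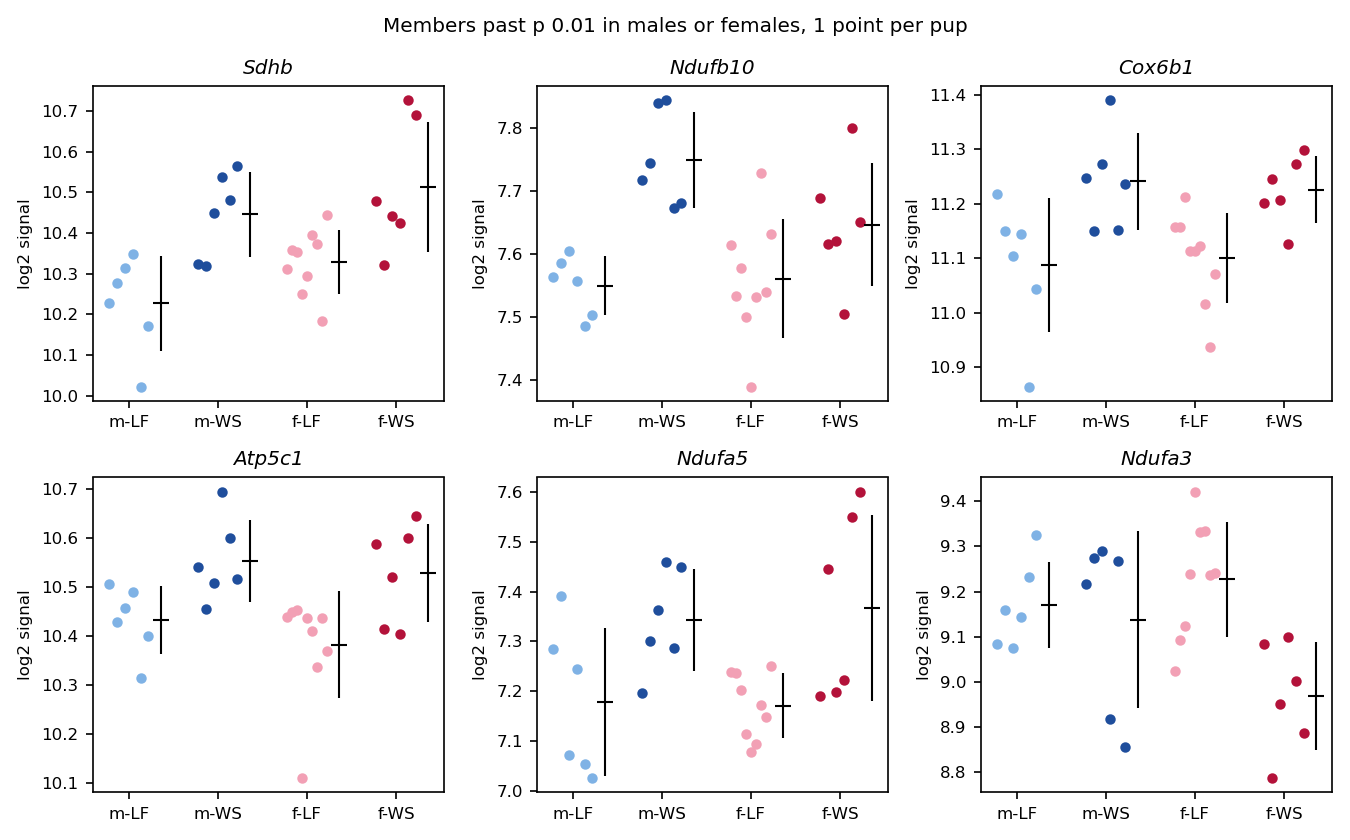
Log2 signal (y axis) of the 6 members past p 0.01 in males or in females, 1 point per pup, with group mean and SD in black beside the points (m-LF, m-WS and f-WS 6 pups each, f-LF 9 pups). The male groups of Ndufb10 do not overlap, with 7.49 to 7.61 on LFD against 7.67 to 7.84 on WSD.

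Complex I takes electrons from NADH through a matrix arm and pumps protons through a membrane arm. Ndufb10 (chr17:24722060-24724423), an accessory subunit of the membrane arm, had the smallest p of all members in males. Its signal lay between 7.49 and 7.61 in male LFD pups, with a median of 7.56, and between 7.67 and 7.84 in male WSD pups, with a median of 7.73. Every WSD male was above every LFD male, which held for 1 of the 57 members and for 0.851% of all genes tested. The change was 0.20 ± 0.0521 (SE, limma, adjusted p = 0.0631), with 0.19 and 0.21 within the prefixes.

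In females Ndufb10 ran from 7.39 through 7.54 to 7.73 on LFD and from 7.51 through 7.64 to 7.80 on WSD. The groups overlapped, and the change of 0.09 ± 0.0476 was not called (limma, adjusted p = 0.413). The sex difference of 0.11 ± 0.0706 had an adjusted p of 0.614 in limma.

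Ndufa5 (chr6:24518662-24527690), an accessory subunit of the matrix arm, rose in females. It ran from 7.08 through 7.17 to 7.25 on LFD and from 7.19 through 7.33 to 7.60 on WSD. All 6 WSD females were above the LFD median and 3 above every LFD female. The change was 0.20 ± 0.0663 (SE, limma, adjusted p = 0.167), with 0.21 and 0.16 within the prefixes. In males the change was 0.16 ± 0.0727 (SE, limma, adjusted p = 0.28), which was not called.

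Ndufa3 (chr7:3617347-3620165), a membrane arm subunit, is the only one of the 57 members past both filters that fell. In females it ran from 9.02 through 9.24 to 9.42 on LFD and from 8.79 through 8.98 to 9.10 on WSD, and 4 of 6 WSD females lay below every LFD female. The change was -0.26 ± 0.0698 (SE, limma, adjusted p = 0.0902), with -0.21 and -0.36 within the prefixes. In males it ran from 9.07 through 9.15 to 9.33 on LFD and from 8.86 through 9.24 to 9.29 on WSD, with a change of -0.03 ± 0.0765. The sex difference of 0.23 ± 0.104 had an adjusted p of 0.469 in limma.

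Of the remaining complex I members none was called. The 3 core redox subunits tested, Ndufs1, Ndufs8 and Ndufv1, carry the iron-sulphur and flavin centres. Ndufs1 had changes of 0.09 in males and 0.08 in females, Ndufs8 0.01 and -0.02, and Ndufv1 0.0093 and 0.0046. Ndufb7 had a change of 0.13 ± 0.0582 in males (limma, adjusted p = 0.276), Ndufa2 0.11 ± 0.0497 (adjusted p = 0.313), and Ndufc2 0.10 ± 0.0449 in females (adjusted p = 0.27).

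Complex III hands electrons from coenzyme Q to cytochrome c. None of its 6 tested members was called, but Uqcr11 (chr10:80402997-80406821), a small accessory subunit, had both the largest change of any member in males and the largest spread. It ran from 9.80 through 10.05 to 10.58 in male LFD pups and from 10.19 through 10.55 to 10.66 in male WSD pups. Low values belonged to m-LF5 (9.80), m-LF6 (9.81) and m-LF2 (9.90), while m-LF1 (10.58) and m-LF4 (10.44) lay among the WSD males. The change was 0.39 ± 0.174 (SE, limma, adjusted p = 0.293), and it was 0.28 in arrays of prefix G073 and 0.62 in those of G074.

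In females Uqcr11 ran from 9.33 through 10.41 to 10.62 on LFD and from 10.29 through 10.40 to 10.71 on WSD. The medians of the diets were nearly equal, and f-LF8 (9.33) and f-LF5 (9.56) stood below all other females. The change was 0.21 ± 0.159 (SE, limma, adjusted p = 0.597). A second probe set of Uqcr11 showed the same low pups, with 8.56 in f-LF8 and 8.98 in f-LF5, and its change was 0.42 in males and 0.17 in females. Within groups the SD of Uqcr11 was 0.33, above that of 97.3% of all genes tested, while the median SD was 0.11 over the members and 0.13 over all genes.

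**Figure D3:**
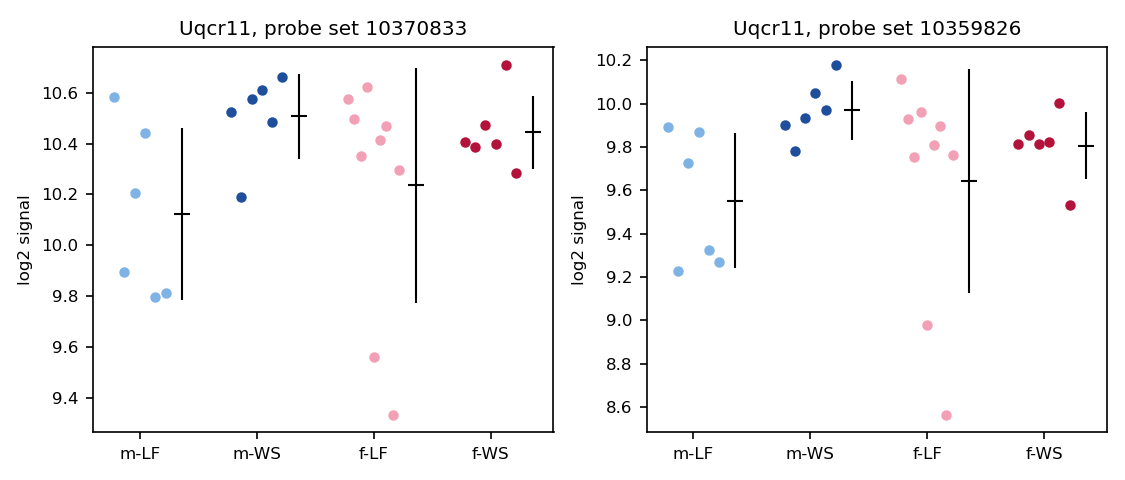
Log2 signal (y axis) of the 2 single-gene probe sets of Uqcr11, 1 point per pup, with group mean and SD in black. In both, f-LF8 and f-LF5 lie below all other females, and m-LF2, m-LF5 and m-LF6 lie below all WSD males.

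The other members of complex III had smaller changes. In females Uqcrb, a subunit near the quinone site, had 0.18 ± 0.0677 (limma, adjusted p = 0.205) and Uqcr10 -0.15 ± 0.0536 (limma, adjusted p = 0.199), both just outside the threshold. In males they had 0.03 and -0.01. Uqcrfs1, the Rieske iron-sulphur protein, had 0.12 ± 0.0972 in males and 0.08 ± 0.0887 in females, and the core protein Uqcrc1 had 0.03 and -0.03.

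Complex IV reduces oxygen, and several of its nuclear subunits exist as a common and a tissue-restricted isoform. Cox6b1 (chr7:30616971-30626114), the common form of a subunit on the outer face of the complex, rose in males. It ran from 10.86 through 11.12 to 11.22 on LFD and from 11.15 through 11.24 to 11.39 on WSD. All 6 WSD males were above the LFD median, 4 were above every LFD male, and m-LF5 was lowest. The change was 0.15 ± 0.0545 (SE, limma, adjusted p = 0.167), with 0.18 and 0.12 within the prefixes. In females it was 0.13 ± 0.0497 (SE, limma, adjusted p = 0.231), from 10.94 through 11.11 to 11.21 on LFD and from 11.13 through 11.23 to 11.30 on WSD.

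The call of Cox6b1 rested on single pups. It was lost without m-LF3, m-LF5, m-LF6, m-WS1, m-WS3, m-WS4 or m-WS6, each left out in turn, with changes between 0.11 (without m-LF5) and 0.16 (without m-LF3). No single pup removed the male calls of Sdhb and Ndufb10, whose changes stayed between 0.18 and 0.24 and between 0.18 and 0.21.

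Of the isoform pairs of complex IV, no other form was called. Cox4i1 had changes of 0.02 in males and -0.06 in females, and Cox4i2, its form known from lung, had 0.21 ± 0.131 and -0.04 ± 0.119. Cox7a2 had 0.11 ± 0.049 in males (limma, adjusted p = 0.278) and 0.03 in females, and Cox7a1, the heart and muscle form, 0.21 ± 0.144 and -0.14 ± 0.131. Cox6a1 had 0.11 in males and 0.16 ± 0.0628 in females (limma, adjusted p = 0.223), and Cox6a2, the muscle form, -0.02 and -0.07. Cox6b2, a testis form, had 0.0044 and -0.04. Ndufa4 had 0.12 and -0.03, and Ndufa4l2, a hypoxia-inducible paralog, 0.18 ± 0.116 and -0.13 ± 0.106.

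Cox4i2, Cox7a1 and Ndufa4l2 had changes of opposite sign in the sexes, but each change lay within 2 SE of 0 and each sex difference had an adjusted p of at least 0.538 in limma. The 3 members below the signal filter were isoforms of complex IV as well. Cox7b2 and Cox8c reached an intensity of 20 on 0 arrays and Cox8b on 2, so no fold change is given for them. Cox8a, the common form of that subunit, had -0.01 in males and -0.06 in females.

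Complex V couples a membrane-embedded c ring to the catalytic F1 head. Atp5c1 (chr2:10056030-10080510), the gamma subunit that turns inside the head, rose in females. It ran from 10.11 through 10.44 to 10.45 on LFD and from 10.40 through 10.55 to 10.65 on WSD. The lowest LFD female was f-LF4, and 4 of 6 WSD females were above every LFD female while 2 were below the LFD median. The change was 0.15 ± 0.0511 (SE, limma, adjusted p = 0.176), with 0.14 and 0.13 within the prefixes. In males Atp5c1 had 0.12 ± 0.0559 (SE, limma, adjusted p = 0.317), with 5 of 6 WSD males above every LFD male.

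The female calls also rested on single pups. That of Atp5c1 was lost without f-LF4, f-LF7, f-LF9, f-WS1, f-WS3, f-WS5 or f-WS6, with changes from 0.11 to 0.15. That of Ndufa5 was lost without f-LF4, f-LF5, f-LF6, f-WS2, f-WS5 or f-WS6, with 0.15 to 0.19, and that of Sdhb without f-WS5 (0.14) or f-WS6 (0.15). Ndufa3 kept its call without each pup in turn.

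Among the c subunits, whose 3 genes encode the same mature protein, Atp5g3 had 0.08 ± 0.0448 in males and 0.09 ± 0.0409 in females, and Atp5g2 -0.03 and -0.05. Atp5g1 failed the filter on variation and had -0.02 and -0.01 in the fit without it. In the peripheral stalk Atp5o had 0.14 ± 0.0523 in males (limma, adjusted p = 0.204) and -0.02 in females, and Atp5h 0.10 ± 0.0499 and -0.0006. Another probe set of Atp5o, with a lower mean signal of 6.78, had 0.07 in males and -0.03 in females. The small subunit Atp5mpl had 0.14 ± 0.0639 and 0.10 ± 0.0583. The catalytic beta subunit Atp5b and the alpha subunit Atp5a1 failed the filter on variation, and in the fit without it had 0.05 and 0.03 in males and 0.07 and 0.04 in females.

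The difference between the sexes was tested for each member. Limma called 0 of 57 members at p 0.01, against 2.5% of all genes, and 5 at an unadjusted p of 0.05, against 9.81%. The smallest p was that of Ndufa6, an accessory subunit of complex I, whose change was 0.07 ± 0.0509 in males and -0.11 ± 0.0465 in females. Its sex difference was 0.19 ± 0.069 (SE, limma, adjusted p = 0.402). Next were Atp5e, the epsilon subunit of the F1 head, with 0.17 ± 0.0691 (limma, adjusted p = 0.416), and Atp5o with 0.16 ± 0.0708 (limma, adjusted p = 0.463). On LFD alone, males and females differed in 0 of 57 members at p 0.01, against 1.37% of all genes, and in 0 at an unadjusted p of 0.05, against 6.6%.

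The mean over the 57 tested members is given per pup, relative to the LFD mean of the same sex, as a description, since the filter on variation can favour members that differ by diet. It ran from -0.07 (m-LF5) to 0.06 (m-LF4) in LFD males and from 0.0078 (m-WS1) to 0.14 (m-WS3) in WSD males, so that every WSD male lay above 0. In females it ran from -0.05 (f-LF4) to 0.04 (f-LF9) on LFD and from -0.08 (f-WS4) to 0.08 (f-WS5) on WSD, and the WSD pups spanned the LFD range. For complex V the WSD males lay between 0.0063 and 0.19 and the LFD males between -0.05 and 0.06. For complex IV they lay between 0.03 and 0.20 and between -0.05 and 0.06. The same mean over all genes tested stayed within 0.04 of 0 in each pup. The normalization (RMA) equalises the arrays by quantiles and largely fixes that mean, so it is no measure of how particular the member means are.

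**Figure D4:**
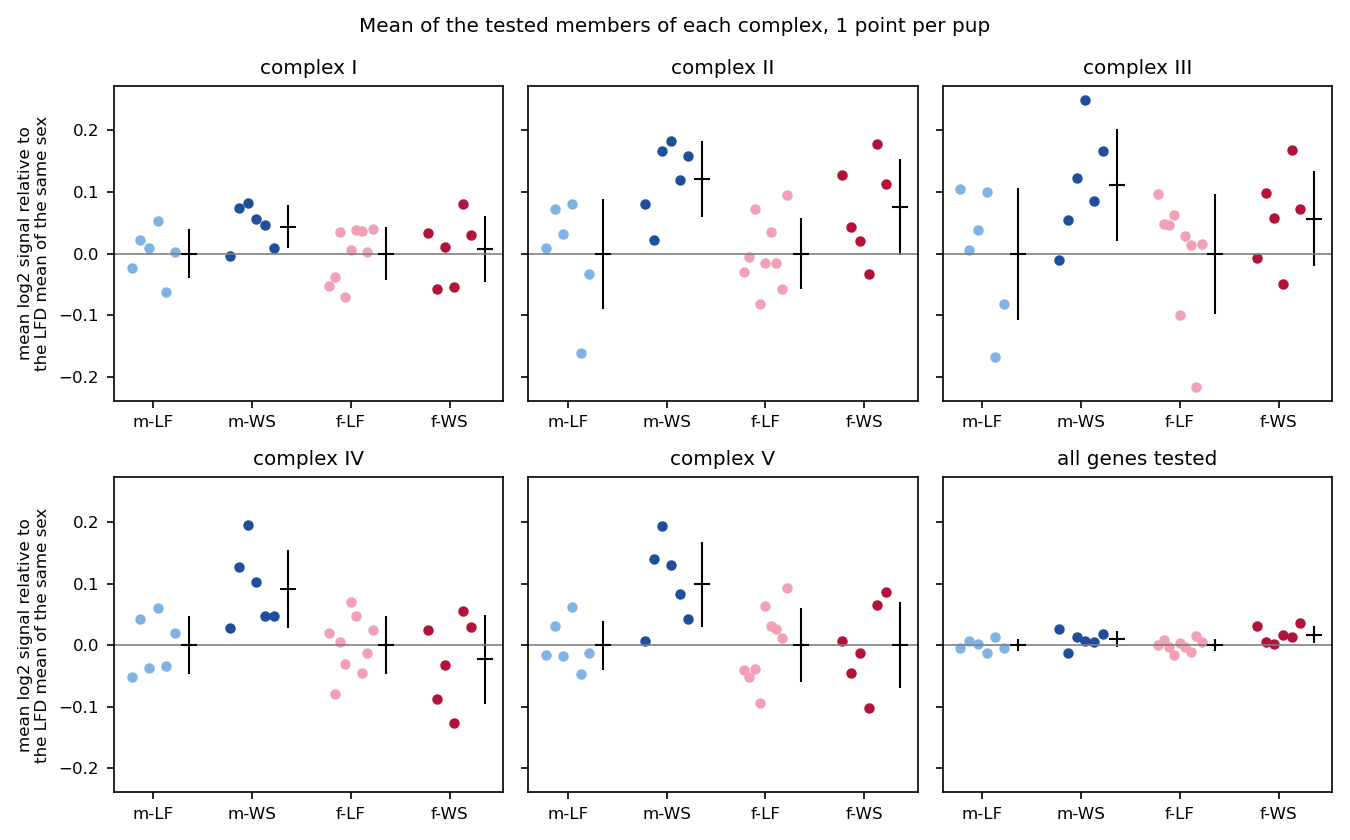
Mean log2 signal of the tested members of each complex, and of all genes tested, per pup and relative to the LFD mean of the same sex (y axis), with group mean and SD in black. In complexes IV and V every WSD male lies above 0 (0.03 to 0.20 and 0.0063 to 0.19), and the WSD females lie on both sides of 0 (-0.13 to 0.06 and -0.10 to 0.09).

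The start regions of Sdhb and Ndufb10 are shown because these members rose in males, that of Uqcr11 because it varied most, and those of Ndufa11 and Atp5k as examples of the NRF1 motif. Each stretch is the 120 bases before the RefSeq start on the gene's own strand (GRCm38.p6). Capitals mark an exact match of a searched motif, on either strand, that lies wholly within the stretch. An NRF1 match of Uqcr11 that begins 5 bases before the start runs past it and is not marked.
Sdhb, chr4:140961151-140961270, plus strand: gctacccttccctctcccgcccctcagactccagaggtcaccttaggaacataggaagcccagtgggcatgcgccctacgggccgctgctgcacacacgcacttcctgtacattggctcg
Ndufb10, chr17:24724424-24724543, minus strand: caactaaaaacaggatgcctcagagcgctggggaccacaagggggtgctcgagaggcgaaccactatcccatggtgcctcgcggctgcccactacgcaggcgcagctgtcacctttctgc
Uqcr11, chr10:80406822-80406941, minus strand: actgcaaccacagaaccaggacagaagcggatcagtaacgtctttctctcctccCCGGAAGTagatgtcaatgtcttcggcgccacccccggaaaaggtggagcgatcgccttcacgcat
Ndufa11, chr17:56717642-56717761, plus strand: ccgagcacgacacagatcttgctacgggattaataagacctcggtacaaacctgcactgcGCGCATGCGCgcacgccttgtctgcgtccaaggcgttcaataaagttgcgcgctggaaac
Atp5k, chr5:108434400-108434519, minus strand: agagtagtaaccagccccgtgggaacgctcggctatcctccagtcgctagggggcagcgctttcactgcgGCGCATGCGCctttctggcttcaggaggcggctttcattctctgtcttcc

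The motifs searched were GCGCATGCG for NRF1, CCGGAAGT for the ETS site of GABPA and AAGATGGCG for YY1, all known from promoters of respiratory chain genes, on both strands of RefSeq windows of 300 bases around each start. A window was given for 67 of the 81 members. The NRF1 letters occurred in 8 of these members (11.9%) and in 2.88% of 14739 genes of the array with a window. In the palindromic matches of Ndufa11 and Atp5k the 2 strands overlap. The YY1 letters occurred in 7 members (10.4%) and in 2.33% of genes, and the ETS letters in 5 members (7.46%) and in 6.07%. None of the 6 members called in either sex held an exact match of the 3 motifs in its window, which says only that these letters are absent there.

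Genes that serve the complexes were described in the same way, beside 5.62% of all genes called in males and 5.19% in females. Of the 14 tested assembly factors of complex I, Dmac2 rose in males (0.22, adjusted p = 0.127 in limma), and Acad9 (0.22, adjusted p = 0.0662) and Foxred1 (0.17, adjusted p = 0.171) rose in females. Of 31 assembly factors of complexes II to V, the copper chaperone Cox17 rose (0.28, adjusted p = 0.0758) and Cox18 fell (-0.20, adjusted p = 0.158) in males, and none was called in females. Of 12 mobile carriers and coenzyme Q enzymes, Pdss2, which helps build the tail of coenzyme Q, rose in females (0.16, adjusted p = 0.162), and 0 were called in males.

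In the TCA cycle, 1 of 10 tested genes rose in each sex, beside 5.62% of all genes called in males and 5.19% in females. These were Suclg1, a subunit of succinyl-CoA synthetase, in males (0.24 ± 0.0536 SE, limma, adjusted p = 0.033) and Idh2 in females (0.18 ± 0.0442 SE, limma, adjusted p = 0.0663). Of 6 tested carriers and outlets of the proton gradient, 0 were called in males and Vdac3, a pore of the outer membrane, rose in females (0.19, adjusted p = 0.0563). Of 11 genes of nuclear control and mitochondrial DNA upkeep, the coactivator Ppargc1b rose in males (0.27, adjusted p = 0.129), and 0 were called in females. Its paralog Ppargc1a had a change of -0.37 ± 0.176 in males (limma, adjusted p = 0.329), which was not called. Nrf1 and Yy1 failed the filter on variation, and Gabpa had 0.14 in males and 0.13 in females, neither called.

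Some markers of other cells rose with maternal WSD in males. The 8 hepatocyte markers were well above the signal filter on all arrays, with a mean log2 signal of 12.44 to 12.65 in LFD males and 12.53 to 12.63 in WSD males, and 12.51 to 12.64 and 12.46 to 12.61 in females. In males 3 of 10 neutrophil and myeloid markers rose (S100a9, Ltf and Cxcr2) and 4 of 5 tested B cell markers rose (Igll1, Ebf1, Cd79a and Pax5). The neutrophil level lay between 5.01 and 6.45 in LFD males and between 5.72 and 6.35 in WSD males, and the B cell level between 5.26 and 6.59 and between 6.15 and 6.71. In females 0 of either list were called. Positive changes in females were seen for 8 of 10 neutrophil and myeloid and 5 of 5 tested B cell markers. The median changes of the 2 lists were 0.67 and 0.84 in males and 0.30 and 0.30 in females. The sex difference was called for 0 genes of either list in limma at p 0.01. Of all genes, 5.62% were called in males and 5.19% in females. The 7 erythroid markers, at 6.27 to 6.91 and 6.13 to 6.77 in LFD and WSD males, were not called in males, and Tfrc rose in females.

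Of the other cell types, 0 of 7 Kupffer cell markers were called in either sex (5.62% of all genes in males, 5.19% in females). In males Clec4g of 6 endothelial markers and Lrat and Reln of 5 stellate markers fell, beside 2.6% of all genes. Of 9 striated muscle markers 5, and of 6 brown fat markers 4 (Ucp1, Cidea, Dio2 and Adipoq), lay under an intensity of 20 on all arrays. The brown fat list shares Cox7a1 with the members. The pup m-LF5, lowest of the LFD males in the mean of the members, had the lowest hepatocyte (12.44) and the highest erythroid (6.91) and neutrophil (6.45) level of its group, while its B cell level (5.26) was the lowest. The pup f-LF8, lowest in Uqcr11, had the highest erythroid (7.13), neutrophil (6.55) and B cell (7.02) level of the LFD females. The opposite held for m-LF2, also low in Uqcr11 (9.90). It had the lowest erythroid (6.27) and neutrophil (5.01) and the highest hepatocyte (12.65) level of the LFD males. Of the other pups low in Uqcr11, m-LF6 (9.81) had the highest B cell level (6.59) of the LFD males. In f-LF5 (9.56) the hepatocyte level (12.51) was the lowest and the Kupffer level (9.74) the highest of the LFD females. The pup m-LF5 also had the highest Kupffer level (9.71) of its group. Its levels in the lists of assembly factors, coenzyme Q, TCA cycle and nuclear control were the lowest of that group. The part of these cells in the changes of the members was not tested.

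Some facts of the series touch these results. Each number in the array names lies within 1 maternal diet and is not explained by the labels. P values take pups as independent although pups of the same number may share a dam. The WSD males carry only the numbers 40 and 48, and the LFD males only 37, 49 and 50. The Xist signal was 9.30 in m-LF6 and 7.92 in m-WS1. It was 3.25 to 4.50 in the other 10 males and 11.67 to 11.88 in the 15 females. The Y-linked Eif2s3y was 8.31 in m-LF6 and 8.70 in m-WS1, against 8.23 to 8.95 in the other males and 2.74 to 3.22 in females. Without these 2 pups 5 members rose in males, where 6.72% of all genes were called in place of 5.62%, and the median change of the tested members was 0.09 in place of 0.07. The precision is limited by the number of arrays.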

How the data were processed

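Liver RNA of 27 pups was measured on Affymetrix Mouse Gene 1.1 ST arrays, 1 per pup. The deposited values are log2 intensities per probe set, obtained by the authors with RMA, which corrects background, equalises the arrays by quantiles and summarises probes. Its version is not given in the sources used here. Of 35556 probe sets, 21218 are listed with a single gene, which gave 18820 genes. According to the methods, probe sets were regrouped by Entrez gene, whereas this table holds those of the manufacturer. Of the 81 members, 23 had several probe sets.

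The filters of the study's methods were applied, namely intensity (minimum 20, reached on 4 or more arrays) and interquartile range (IQR, minimum 0.1). This left 57 members of 10810 genes, with 21 members lost to the IQR and 3 to the intensity. The model in limma 3.58.1 under R 4.3.3 had a mean for each of the 4 groups and an intensity trend. The contrasts were WSD minus LFD in each sex, their difference, and males minus females on LFD. P values were adjusted by Benjamini-Hochberg over all genes of a fit. The fit was tested on simulated data. Python 3.11.15 with matplotlib 3.10.9 drew the figures.

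The members and gene lists were chosen with earlier results of these data known. Members were named by rule: all called at p 0.01, up to 4 of smallest p per complex and sex, the smallest p for the sex difference, the isoform pairs, the c subunit genes and those the study names. Genes named beyond it (Ndufs1, Ndufs8, Ndufv1, Sdha, Sdhc, Atp5b, Atp5a1, Nrf1 and Yy1, and Ndufa11 and Atp5k for their start regions) were chosen after their values were seen. Gene positions and start regions are from RefSeq (GRCm38.p6). Alternatives were other filters, prior variances, normalizations, array weights, each sex alone, blocks for prefix, number or replicate number, subsets of arrays, and the mean of probe sets. Fits within 1 prefix and the joint block were added after the data were examined.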

Additional observations from a re-analysis of the deposited data

Results flagged for a closer look

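In 9 of 152 groups of pups, over 38 named members, the highest or lowest pup stood apart from the rest of its group by Dixon's criterion. Chance gives about 1 in 20 such groups. In females f-LF4 was low in Atp5c1 at 10.11 (the other 8 LFD females 10.34 to 10.45) and in Ndufc2 at 11.19 (11.35 to 11.45). The pup f-WS4 was low in Atp5g3 at 10.93 (10.99 to 11.03 in the other WSD females) and in Cox6a1 at 10.15 (10.36 to 10.46). Cox5b was low in f-WS2 at 10.62 (10.79 to 10.90), Cox6b2 was low in f-LF2 at 4.33 (4.66 to 4.93), and Ndufb7 was high in f-WS1 at 8.69 (8.42 to 8.49). In males m-LF5 was low in Ndufa4 at 9.49 (9.71 to 9.84 in the other LFD males) and in Cox8b at 3.85 (4.05 to 4.13), the latter below the signal filter.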

How the results depend on the processing

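Against 3 members called in males at p 0.01 (5.62% of all genes), limma called 5 without m-LF6 and m-WS1 (6.72%), 1 with same-sex arrays of each number averaged (2.24%), 0 without number 48 (3.01%) and 0 within prefix G073 (3.49%) or G074 (0.685%) alone. Leaving out each pup gave 2 to 4 (4.5% to 7.53% of all genes). Against 4 called in females (5.19% of all genes), it called 7 without the IQR filter (5.14%) or without any filter (4.02%), 7 without number 37 (7.55%), 2 without number 48 (3.9%), 0 without number 49 (1.62%), 1 with averaged arrays (1.62%) and 2 within prefix G073 (1.84%). Leaving out each pup gave 1 to 8 (3.42% to 5.88% of all genes), with 7 without f-LF1 or f-LF2, 2 without f-LF4, 8 without f-WS4 and 1 without f-WS5 or f-WS6. Replicate numbers did not pair the pups (correlations of same-numbered deviations from -0.255 to 0.264). With the replicate number as a block 3 members were called in males (6.02% of all genes) and 1 in females (5.24%). After adjustment, at 0.05, the count in males was 1 without f-LF5 or f-WS5 (range 0 to 1 over single pups). That in females was 1 without number 37 (0 over single pups). Over all genes in males, 40 were higher and 46 lower of 10707 without f-LF5, and 57 and 52 of 10765 without f-WS5. Over all genes in females, 131 were higher and 54 lower of 10346 without number 37. The main fit had 35 and 44 in males and 20 and 13 in females, of 10810. The sex difference was called for 0 members (2.5% of all genes), for 1 without the IQR filter (2.45%), without any filter (2.04%), with quantile normalization repeated (2.58%), with the number as a random block (2.71%), or without number 48 (3.72%) or 49 (1.49%), and for 2 without number 37 (2.02%). Over single pups it ranged from 0 to 2, with 2 without m-WS6 (2.77% of all genes). It was 1 without m-LF2 (2.68%), m-LF4 (2.22%), m-WS4 (2.68%), f-LF5 (2.34%), f-WS3 (1.89%) or f-WS6 (2.88%). The median change of the tested members lay between 0.03 and 0.10 in males and between -0.04 and 0.02 in females over these settings. None of the called changes (Sdhb, Ndufb10 and Cox6b1 in males, Sdhb, Ndufa5, Atp5c1 and Ndufa3 in females) reversed in them. Centring each array on its median left 2 rises in males (5.4% of all genes called), and 0 rises and 3 falls in females (4.3%). The female rises of Sdhb, Ndufa5 and Atp5c1 were thus not called there. The median change of all genes went from 0.0073 to -0.012 in males and from 0.014 to -0.0095 in females. The positive share of all genes went from 52.8% to 45.4% in males and from 56.1% to 46.3% in females, so signs depend on this step. With number 50 left out, Sdhb in males was 0.15 and Cox6b1 0.09, neither at p 0.01 in limma. The cause of these shifts was not tested.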
